A study of Mus musculus with 19 samples.

Results

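The mitochondrial respiratory chain genes are the nuclear genes whose symbols begin with Nduf (complex I), Sdh followed by a to d (complex II), Uqcr (complex III), Cox4 to Cox8 (complex IV) or Atp5 (ATP synthase). This rule on symbols found 94 of the 18193 genes measured, or 0.517%, and it used no measured value. They were 36 complex I genes, 12 assembly factors of complexes I and II (Ndufaf and Sdhaf), 4 genes of complex II, 8 of complex III, 17 of complex IV and 17 of ATP synthase. Groups followed the symbol alone, so Ndufa4 and Ndufa4l2 count under complex I whatever complex their proteins join. The 94 genes had 185 probe sets that name a single gene, 53 of the genes had more than 1, and each gene was read from the one with the brightest mean across the 18 neonatal arrays. A further 8 symbols (Ndufs5-ps, Ndufb4b, Ndufb4c, Ndufa11b, Ndufa11, Ndufs6b, Ndufs6 and Ndufab1-ps) appeared only on probe sets that name several genes and have no value here.

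The study put sorted skeletal cells of wild-type mice on Affymetrix mouse expression arrays. The cells came from fore and hind limbs of a pooled litter at postnatal day 3, and the growth protocol calls the mice GFP-labeled. All 18 neonatal arrays hold cells sorted as CD45-Ter119-Tie2-AlphaV+, with 3 arrays for each of 6 populations. Cells without Thy and 6C3 were split by CD105 into Thy-6C3-CD105- and Thy-6C3-CD105+. Cells with Thy alone of that pair were split into Thy+6C3-CD105+ and Thy+6C3-CD105-, and cells with 6C3 alone into Thy-6C3+CD105+ and Thy-6C3+CD105-. The design text speaks of 3 repeats per sorted population; nothing says that they came from separate litters, so p-values measure the spread between these arrays, which may be technical. Replicates 2 and 3 of Thy-6C3+CD105- carry titles that name Thy+, and the population field was followed; Thy1 read 5.71 to 5.95 on the 3 arrays of that population, 9.99 to 10.47 on the 6 Thy+ arrays and 4.96 to 5.91 on the 9 others. Enpep, the gene of 6C3, read 10.69 to 11.24 on the 6C3+ arrays and 6.20 to 8.83 elsewhere. Eng, the gene of CD105, read 8.17 to 8.83 on the CD105+ arrays and 6.65 to 8.58 on the CD105- arrays; the groups overlapped through Thy+6C3-CD105-, which reached 8.58. A single adult array, of cells labelled Thy+6C3+CD105+, entered no test.

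The respiratory chain passes electrons from NADH (complex I) and succinate (complex II) through complex III to oxygen at complex IV, and ATP synthase makes ATP from the proton gradient that results. Most subunits are encoded in the nucleus and are made in nearly every cell. Growth-plate cartilage has no blood vessels, and chondrocytes are known for a large share of glycolysis in their energy supply. The surface antigens Thy, 6C3 and CD105 (endoglin, a co-receptor of the TGF-beta family) divide the skeletal progenitors of the limb. Marker genes place the populations: the 12 chondrocyte genes averaged 12.25 to 12.62 (log2 signal) on the 6 arrays of Thy-6C3-CD105- and Thy-6C3-CD105+, and 9.06 to 10.18 on the other 12. In these bulk samples, fewer cells of a type and less RNA per cell cannot be told apart.

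Values are log2 signals after quantile normalization, which gives all arrays the same distribution, so a difference of 1 is a 2-fold change. Deposited array medians lay between 5.6 and 6.02, and replicate arrays of a population correlated at 0.931 to 0.995 across genes. Deposited values of the 3 Thy+6C3-CD105- arrays had standard deviations of 2.02, 2.08 and 1.91, against 2.05 to 2.23 on the other neonatal arrays, the 2.05 being replicate 3 of Thy-6C3+CD105-. The highest deposited median, 6.02, was that of replicate 2 of Thy-6C3+CD105-. Replicate 3 of Thy+6C3-CD105- had a median correlation of 0.936 with its own group. Because family medians moved with the scaling in several comparisons, values as deposited and with array medians equalized only are given beside them.

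Ndufb8, Ndufa13 and Ndufv1 had the smallest F-test p-values among the 94 genes, so their upstream sequence is shown: the 250 bases before the RefSeq transcription start (GRCm38.p6, minus strand for all 3, written 5′ to 3′ on the gene's own strand). Capitals mark motifs found by search. Ndufb8 (chr19:44555443-44555692) encodes an accessory membrane subunit of complex I and held none of the 4 motifs searched. Ndufa13 (chr8:69902021-69902270), another accessory subunit of complex I also known as GRIM-19, held a CCAAT sequence. Ndufv1 (chr19:4012756-4013005), the core subunit that binds NADH, held CACGTG, which reads ACGTG on both strands.
Ndufb8: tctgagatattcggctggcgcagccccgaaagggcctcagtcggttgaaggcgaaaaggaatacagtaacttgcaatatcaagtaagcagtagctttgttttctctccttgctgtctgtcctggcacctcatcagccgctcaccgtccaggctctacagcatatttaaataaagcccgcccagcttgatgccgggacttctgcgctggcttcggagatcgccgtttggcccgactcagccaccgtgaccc
Ndufa13: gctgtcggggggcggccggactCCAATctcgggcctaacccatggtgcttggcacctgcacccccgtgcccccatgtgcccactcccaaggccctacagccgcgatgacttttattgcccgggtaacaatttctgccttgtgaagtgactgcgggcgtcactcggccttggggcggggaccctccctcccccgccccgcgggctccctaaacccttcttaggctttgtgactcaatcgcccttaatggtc
Ndufv1: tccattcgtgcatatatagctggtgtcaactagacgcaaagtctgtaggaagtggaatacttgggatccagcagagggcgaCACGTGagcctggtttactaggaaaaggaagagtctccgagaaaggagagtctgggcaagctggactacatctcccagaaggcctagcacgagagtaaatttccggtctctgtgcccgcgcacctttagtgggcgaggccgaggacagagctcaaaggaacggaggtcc

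The search read both strands, none of its 4 motifs contains another, and it covered the 78 of 94 genes that have an entry in the RefSeq table. Counts are of genes, and a gene with several promoter entries counted if any of them held the motif. GCATGCG, the core of sites bound by the mitochondrial regulator NRF1, was in 9 of 78 (11.5%), against 3.43% of all 27025 genes with an entry. CCGGAAG, a core of ETS-family sites such as those of GABP, was in 16 (20.5%), against 7.83%. ACGTG, the core of the hypoxia response element, was in 17 (21.8% against 18.5%), and CCAAT was in 33 (42.3% against 37.5%). These shares are descriptions of letters, and no binding was measured. Of the 17 genes that passed the test between Thy+6C3-CD105- and Thy-6C3-CD105- (described further on), 11 have an entry: GCATGCG was in Atp5j and Sdhb, CCGGAAG in Atp5j and Ndufb7, ACGTG in Ndufv1, and CCAAT in Cox7a1, Ndufa13 and Sdhb.

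As a group, the respiratory chain genes varied little among the 6 populations. The gap between the highest and lowest population mean had a median of 0.47 over the 94 genes, and 88 of them (93.6%) stayed under 1, or 2-fold. Over all genes the median gap was 0.55 and 82.2% stayed under 2-fold. Most of the family gives bright signals, 85 of 94 lying above the median gene mean of 6.76, and among genes that bright the contrast was wider: a median gap of 0.48 over the 85, against 0.65 over all 9096, with 95.3% and 75.4% under 2-fold. The widest gaps were 1.17 for Cox7c and for Cox6c and 1.15 for Ndufa4l2. The probe set of Cox7c is dim, and its gap came from a single array at 6.46 (Thy-6C3-CD105- replicate 3) against a median of 3.95 over the 18.

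In the moderated F-test across the 6 populations (limma, Benjamini-Hochberg over all genes), 4 of the 94 genes passed an adjusted p of 0.05, or 4.26%, against 10.1% of all genes. They were Ndufb8 (adjusted p = 0.0116), Ndufa13 (0.0301), Ndufv1 (0.0306) and Atp5mpl (0.0447), a small subunit of the ATP synthase membrane part. None of the 4 passed with the values as deposited or with array medians equalized only, and leaving out single arrays moved the count between 1 and 6. The next 4 by p were Ndufb9, Ndufs5, Ndufb7 and Cox5b, with adjusted p from 0.051 to 0.137.

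Ndufb8 read 11.05, 10.61 and 11.16 in Thy+6C3-CD105- and 10.63, 10.69 and 10.61 in Thy+6C3-CD105+. It read 10.31, 9.80 and 10.18 in Thy-6C3-CD105- and 10.19, 10 and 9.91 in Thy-6C3-CD105+. The 6C3-positive populations read 10.22, 10.42 and 10.27 (Thy-6C3+CD105+) and 10.14, 10.53 and 10.14 (Thy-6C3+CD105-). The lowest of the 6 Thy+ arrays, at 10.61, was thus above the highest of the 12 Thy- arrays, at 10.53.

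Ndufa13 read 12.48, 12.46 and 12.88 in Thy+6C3-CD105- and 12.35, 12.23 and 12.27 in Thy+6C3-CD105+. It read 12.04, 11.75 and 11.61 in Thy-6C3-CD105- and 12.01, 11.91 and 12.03 in Thy-6C3-CD105+. Each Thy+ array lay above each 6C3-negative Thy- array, while the 6C3-positive arrays, between 11.90 and 12.42, overlapped the Thy+ arrays.

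Ndufv1 read 11.77, 11.85 and 12.49 in Thy+6C3-CD105- and 11.81, 11.84 and 11.85 in Thy+6C3-CD105+. It read 11.41, 11.24 and 11.24 in Thy-6C3-CD105- and 11.41, 11.37 and 11.27 in Thy-6C3-CD105+. The 6 Thy+ arrays lay above the 6 of the 6C3-negative Thy- populations with no overlap. Between Thy+6C3-CD105- and Thy-6C3-CD105-, Ndufv1 was not higher without overlap in the values as deposited. With array medians equalized, neither were Ndufb8, Ndufa13 and Ndufv1. Atp5mpl differed in shape: 10.44, 10.03 and 10.30 in Thy+6C3-CD105-, but 9.83, 9.70 and 9.81 in Thy+6C3-CD105+, close to the 6C3-positive arrays at 9.57 to 10.07. Its lowest arrays were in Thy-6C3-CD105- (9.51, 9.58 and 9.66) and Thy-6C3-CD105+ (9.42, 9.67 and 9.42).

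**Figure D1:**
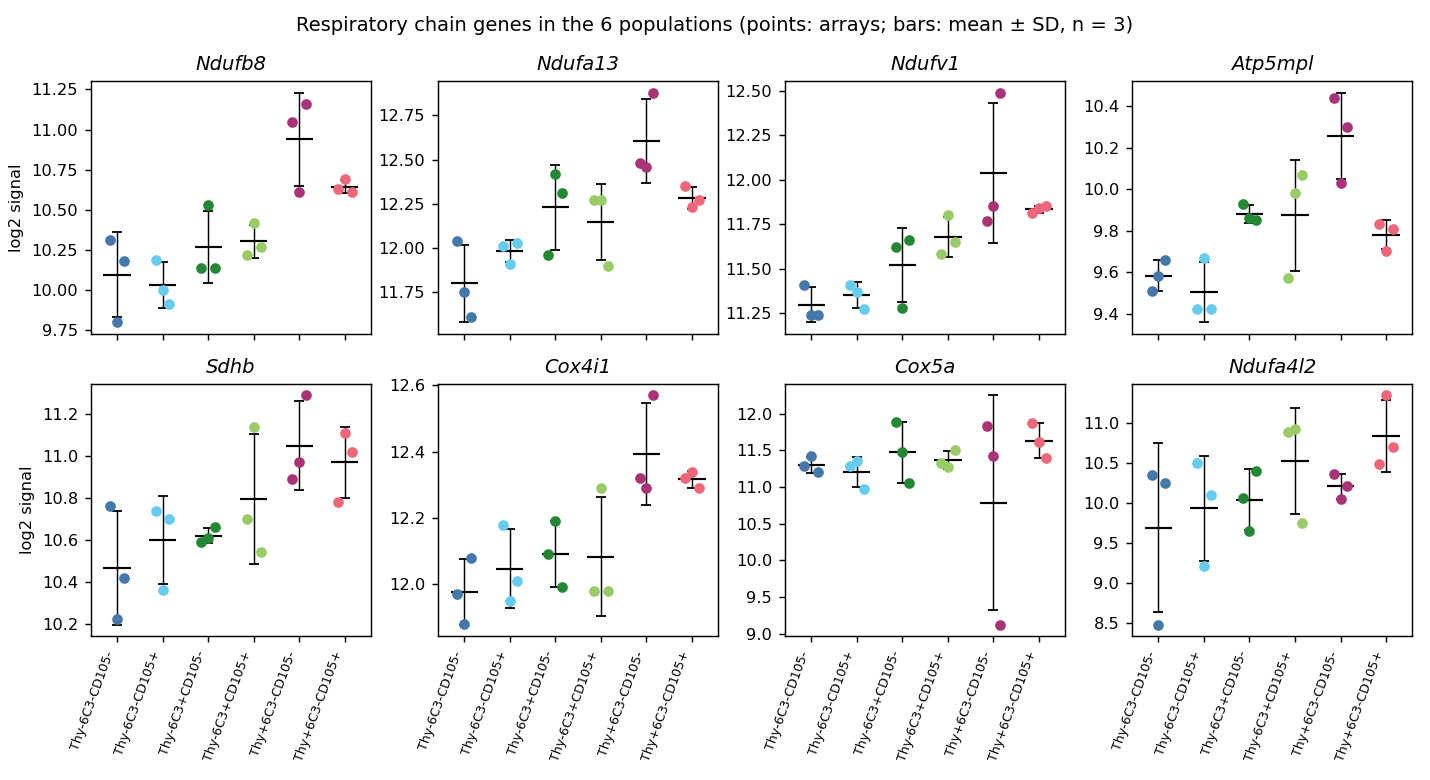
Log2 signal (vertical axis, a separate scale in each panel) of 8 respiratory chain genes in the 6 neonatal populations (horizontal axis); points are arrays and bars the mean ± SD of 3. In these quantile-normalized values Ndufb8 was higher on all 6 Thy+ arrays than on the other 12, while Cox5a held a single low array at 9.12 in Thy+6C3-CD105-.

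The order of the populations was shared by many members but rested on the scaling. After quantile normalization, 48 of the 94 genes (51.1%, against 38.3% of all genes) had their highest mean in Thy+6C3-CD105- and 23 (24.5% against 15.4%) in Thy+6C3-CD105+, and 41 (43.6% against 26.2%) had their lowest in Thy-6C3-CD105-. In the deposited values, 51 (54.3% against 18.3%) had their highest mean in Thy+6C3-CD105+ and 13 (13.8% against 30.8%) in Thy+6C3-CD105-, and 36 (38.3% against 31.1%) had their lowest in Thy+6C3-CD105-. With only the array medians equalized, 56 (59.6% against 24.3%) were highest in Thy+6C3-CD105+ and 45 (47.9% against 37.9%) were lowest in Thy+6C3-CD105-. All genes together also had Thy+6C3-CD105- as their most frequent lowest population in these last 2 scalings. Thy+6C3-CD105+ therefore held a larger share of the highest means than among all genes in each of the 3 scalings, while Thy+6C3-CD105- went from the most frequent highest population to the most frequent lowest one.

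**Figure D2:**
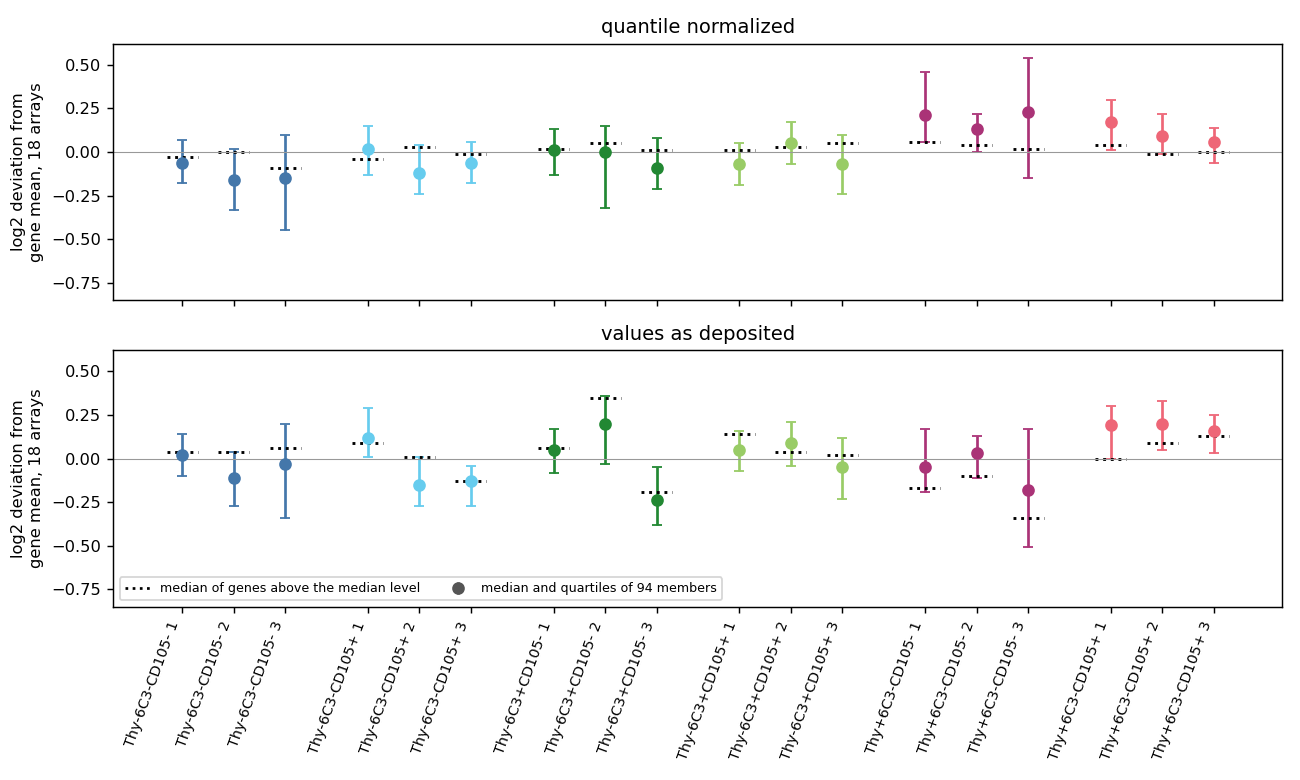
Deviation of the 94 genes from their own means over the 18 arrays (vertical axis, log2), for each array (horizontal axis); dots are medians, bars run from the lower to the upper quartile, and dotted lines give the median of all genes above the median gene mean. Quantile normalized, the medians of all 6 Thy+ arrays were positive, from 0.06 to 0.23; as deposited, replicates 1 and 3 of Thy+6C3-CD105- fell to -0.05 and -0.18.

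The first comparison asks what differs with Thy among 6C3- cells that are CD105+, setting Thy+6C3-CD105+ against Thy-6C3-CD105+. Respiratory chain genes leaned higher in the Thy+ cells, by a small amount: the median log2 change was 0.16 over the 94 genes, against -0.02 over all genes and 0.00 over genes above the median gene mean. In all 3 scalings the lean was to the same side, 0.16, 0.22 with the values as deposited and 0.25 with medians equalized, and 68, 73 and 77 of the 94 changes were above 0. No member passed the limma test at an adjusted p of 0.05, where 6.66% of all genes did; at an unadjusted p under 0.05 there were 7 higher and 0 lower, against 9.38% and 6.74% of all genes. The smallest adjusted p was that of Ndufb8, 0.0544, with a log2 change of 0.61 ± 0.18 (SE).

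Single genes showed the lean as well. The 3 Thy+ arrays lay above the 3 Thy- arrays without overlap for 27 of the 94 genes (28.7%, against 14.4% of all genes), and below without overlap for 1, the assembly factor gene Ndufaf4 (1.06%, against 11.8%). With the values as deposited the counts were 27 and 0 (14.4% and 9.44% of all genes), and with medians equalized 26 and 0 (14.7% and 8.44%). Complex I had a median change of 0.23 with 29 of 36 genes above 0, and complex III one of 0.23 with 7 of 8. ATP synthase stood at 0.18 (13 of 17), complex II at 0.15 (2 of 4) and complex IV at 0.11 (11 of 17). The assembly factors, proteins that build complexes I and II without being part of them, had a median of 0 with 6 of 12 above 0.

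Ndufb9, an accessory complex I subunit, read 11.51, 11.03 and 10.98 in Thy+6C3-CD105+ and 10.72, 10.57 and 10.58 in Thy-6C3-CD105+. Its log2 change was 0.55 ± 0.18 (SE) with a limma adjusted p of 0.0767, and its groups did not overlap. The count of members called in this step was sensitive to the fit: 8 with array weights (Ndufa4l2, Ndufb7, Ndufb8, Ndufb9, Ndufs8, Ndufv1, Sdhb and Uqcrc1, all higher), 4 with only the 2 compared populations in the fit, 2 with the poly-A set as block, and 0 in each fit that left out an array.

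The same antigen step among CD105- cells, Thy+6C3-CD105- against Thy-6C3-CD105-, gave the only calls. After quantile normalization, 17 of the 94 genes rose (18.1%) and 0 fell, where 18% of all genes were called, 10.5% higher and 7.45% lower. The share of members called was thus close to that of all genes, and their direction was all one way. At an unadjusted p under 0.05 there were 34 higher and 2 lower, against 22.5% and 13% of all genes. The median log2 change was 0.35, against 0.13 over all genes. With the values as deposited it was 0.00 (all genes 0.09), and with array medians equalized -0.14 (all genes -0.05), so the side on which the family lies in this step was set by the scaling.

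The 17 genes came from 5 of the 6 groups: 8 of 36 in complex I (Ndufs5, Ndufv2, Ndufb8, Ndufa13, Ndufv1, Ndufb7, Ndufb9 and Ndufa2), 1 of 4 in complex II (Sdhb), 1 of 8 in complex III (Uqcrq), 4 of 17 in complex IV (Cox8c, Cox7a1, Cox5b and Cox4i1) and 3 of 17 in ATP synthase (Atp5o, Atp5mpl and Atp5j), and none of the 12 assembly factors. The largest change was in Cox8c, an isoform of the small subunit COX8 known from testis. It read 8.46, 8.29 and 9.53 in Thy+6C3-CD105- and 7.75, 7.95 and 7.39 in Thy-6C3-CD105-, a change of 1.06 ± 0.30 (SE; limma adjusted p = 0.0248). Its other, dimmer probe set changed by -0.59, so the 2 readings of this gene disagree in sign.

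Ndufs5, a complex I accessory subunit of the intermembrane side, read 9.16, 9.20 and 9.38 against 8.18, 8.56 and 8.40, a change of 0.86 ± 0.20 (SE; limma adjusted p = 0.00848). Ndufb8 changed by 0.85 ± 0.18 (SE; limma adjusted p = 0.00454), from a mean of 10.09 ± 0.26 (SD, n = 3) to 10.94 ± 0.29. Ndufa13 changed by 0.81 ± 0.16 (SE; limma adjusted p = 0.00296), from 11.80 ± 0.22 to 12.61 ± 0.24. None of these 3 genes had overlapping arrays in the 2 populations when quantile normalized.

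Ndufv2, the core subunit that pairs with Ndufv1 at the NADH-binding end, was called with a change of 0.86 ± 0.27 (limma adjusted p = 0.0381) on its brightest probe set, but the other 2 changed by 0.06 and 0.07. The called value rested largely on Thy+6C3-CD105- replicate 3, which read 12.13 against 10.98 and 10.89 in the other 2. Cox7a1, the heart and muscle isoform of COX7A, changed by 0.78 ± 0.26 (limma adjusted p = 0.0463) at dim signals, from 4.2, 4.41 and 4.24 to 5.35, 4.83 and 5. Beside it, 1 of 14 skeletal muscle markers (Ckm) and 1 of 6 fat markers (Lep) were called higher in this step, against 10.5% of all genes. The 14 muscle markers averaged 5.40 to 5.64 on the Thy-6C3-CD105- arrays and 5.54 to 5.93 on the Thy+6C3-CD105- arrays. The part of muscle cells in the Cox7a1 value was not tested.

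Sdhb, the iron-sulfur subunit of succinate dehydrogenase, read 10.89, 10.97 and 11.29 against 10.76, 10.22 and 10.42, a change of 0.58 ± 0.19 (limma adjusted p = 0.0421). Its 3 partners were not called: Sdha read 10.33, 10.66 and 10.68 against 10.67, 10.91 and 10.47, Sdhc 9.94, 9.51 and 9.35 against 9.21, 9.69 and 9.15, and Sdhd 10.34, 10.73 and 10.70 against 10.43, 10.47 and 10.21. The arrays of the 2 populations overlapped for all 3 partners. Cox4i1, the general isoform of COX4, read 12.32, 12.29 and 12.57 against 11.97, 11.88 and 12.08, a change of 0.41 ± 0.13 (limma adjusted p = 0.0356). Atp5o, of the ATP synthase stalk, read 11.32, 11.51 and 12.17 against 11.08, 10.92 and 10.79 (0.74 ± 0.19).

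Among the 17, the other called genes changed by 0.41 (Atp5j) to 0.74 (Ndufv1), with adjusted p from 0.00701 to 0.049. Other probe sets of the called genes mostly pointed the same way with other sizes: 0.91 and 0.32 for Ndufv1 beside 0.74, 1.01 for Ndufb7 beside 0.69, and 0.14 and 0.37 for Ndufb9 beside 0.61. For Ndufb8 the other, dimmer probe set changed by only 0.24 beside 0.85. In the step among CD105+ cells it changed by 0.35 beside 0.61. Uqcrq was split, its dimmer probe sets changing by 1.02, 0.02 and -0.29 beside 0.54 on the one used.

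How the 17 fared with the scaling differed by gene. As deposited, all 17 changes stayed above 0 and 2 were still called, Cox7a1 (0.96, limma adjusted p = 0.025) and Ndufa13 (0.57, adjusted p = 0.0345). With array medians equalized, 13 stayed above 0 and only Cox7a1 was called (0.82, adjusted p = 0.0406). Some members outside the 17 were called lower. As deposited this was Atp5b, the catalytic beta subunit of ATP synthase (-0.63, limma adjusted p = 0.0365). With medians equalized they were Atp5b (-0.77), Sdha (-0.69) and Ndufs1 (-0.82). These are core subunits, but so are Ndufv1 and Ndufv2, which are among the 17 called higher when quantile normalized. After quantile normalization Atp5b read 11.78, 12.37 and 12.09 in Thy+6C3-CD105- and 12.34, 12.58 and 12.34 in Thy-6C3-CD105- and was not called.

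Relative to other bright genes, the offset of the family hardly moved. Genes above the median gene mean changed by a median of 0.05, -0.28 and -0.42 in the quantile-normalized, deposited and median-equalized values, and the 94 members by 0.35, 0.00 and -0.14. In the step among CD105+ cells the corresponding values were 0.00, 0.07 and 0.10 against 0.16, 0.22 and 0.25. The comparison with genes above the median gene mean was added after the values were seen. No test stands behind it.

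**Figure D3:**
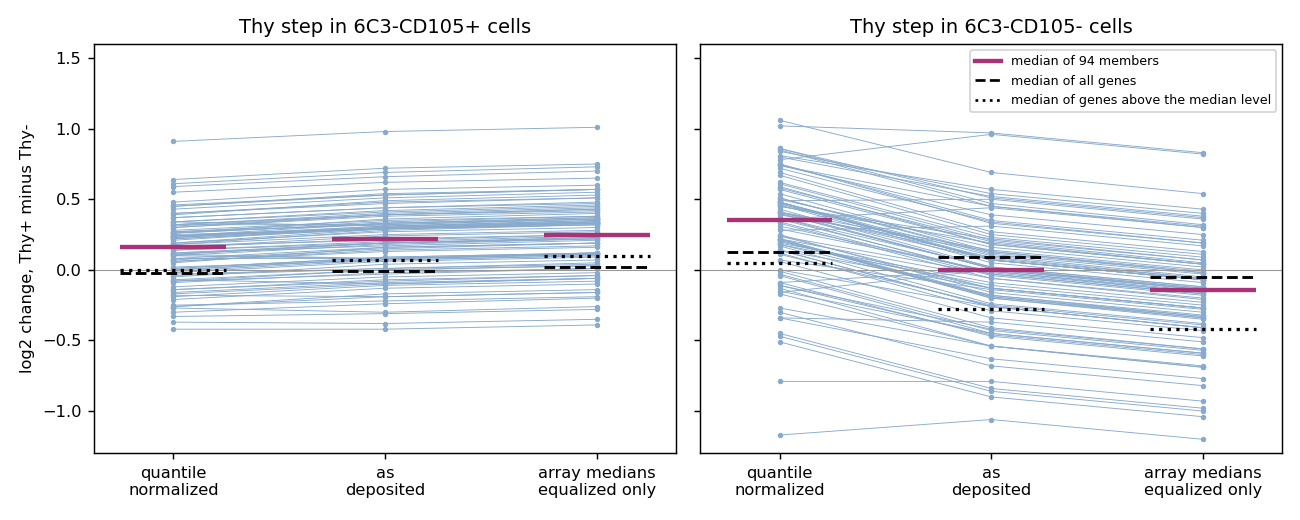
Log2 change (vertical axis) of each of the 94 genes in the 2 Thy steps under 3 scalings (horizontal axis); each line is a gene and bars give medians of the members, of all genes and of genes above the median gene mean. In the step among CD105+ cells the members' median stayed between 0.16 and 0.25, and in the step among CD105- cells it went from 0.35 to -0.14.

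Counts without overlap moved with the scaling in this step. As deposited 10 members were higher and 9 lower (22.7% and 17.3% of all genes), and with medians equalized 5 and 12 (15.7% and 22.3%).

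The call count in the step among CD105- cells depended on single arrays as well. It was 6 without Thy-6C3-CD105- replicate 3 and 7 without Thy+6C3-CD105- replicate 3. With only the 2 compared populations in the fit it was 2. Probe sets that share probes with other transcripts (suffixes _s_at, _x_at and _a_at) measured most of the 17, Ndufb8, Ndufa13 and Ndufv1 among them. Without such probe sets 76 members could be tested and 9 were called. Of the 17, 13 could be tested in that way, and 7 kept their call. The poly-A control signals split the arrays into a set of 11 with high and a set of 7 with low values. The members' median change was 0.23 in the high set (2 Thy+ arrays against 1) and 0.44 in the low set (1 against 2), with all-gene medians of 0.15 and 0.11; these have no test.

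The 2 Thy steps share no arrays. Both steps had 27 genes that were higher without overlap, and 13 were in both lists: Atp5c1, Atp5h, Atp5j, Atp5mpl, Cox4i1, Cox5b, Ndufa13, Ndufb7, Ndufb8, Ndufb9, Ndufv1, Sdhb and Uqcrc1. These are 48.1% of each list and 13.8% of the members, where 6.19% of all genes were higher without overlap in both steps. In the step among CD105- cells, 28.7% of members against 23% of all genes were higher without overlap, and 3 were lower (Cox7c, Ndufaf6 and Sdhaf3; 3.19% against 11.7%). With the values as deposited only 3 genes were in both lists (4.46% of all genes), and with medians equalized 1 (3.32%).

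Across the 94 genes the changes in the 2 steps correlated at 0.268 (Pearson; 0.489 over all genes); genes are not independent, and this is a description. Of the 94, 56 (59.6%) were above 0 in both steps when quantile normalized, against 32.1% of all genes, and the side of the family in the step among CD105- cells depends on that scaling. The interaction, which tests whether the Thy step differs with CD105, called 0 members (0.269% of all genes), with 1 higher and 6 lower at an unadjusted p under 0.05 (5.5% and 11.2% of all genes). Its smallest limma adjusted p was 0.233, for Cox7a1, whose Thy step was smaller by 1.04 ± 0.37 (SE) in CD105+ than in CD105- cells. A member called in one step and not in the other is therefore not shown to differ between them.

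**Figure D4:**
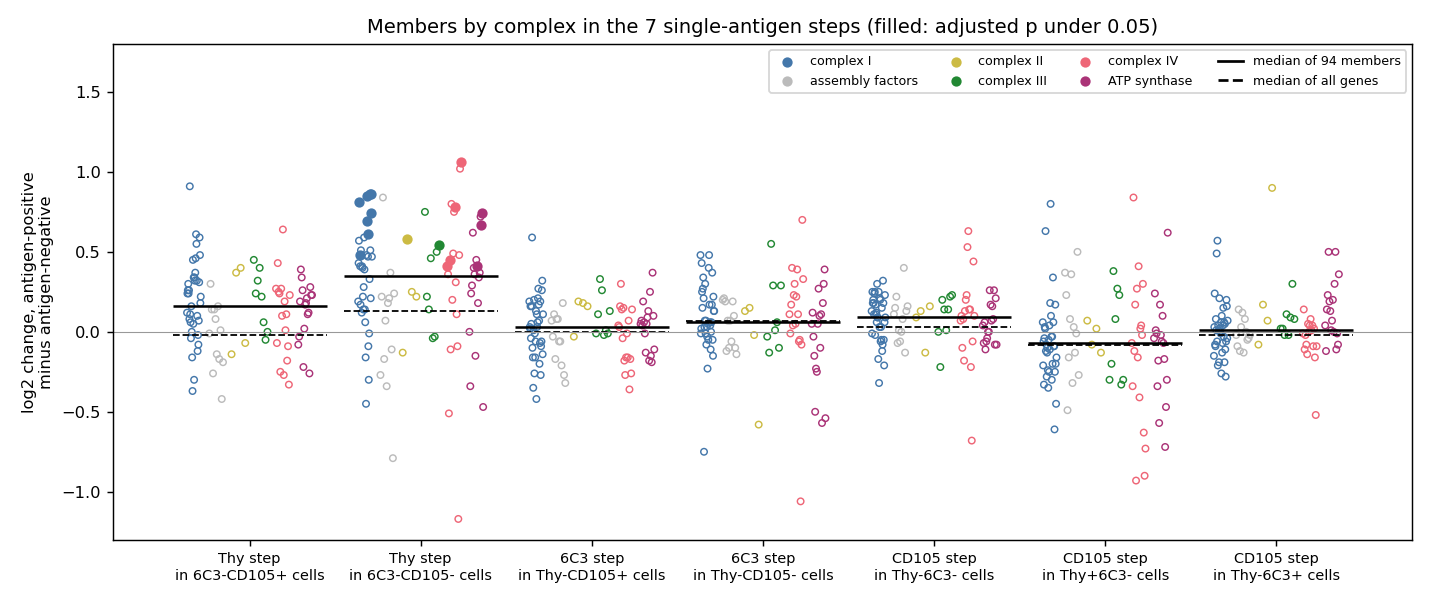
Log2 change (vertical axis, antigen-positive minus antigen-negative, quantile-normalized values) of the 94 genes in the 7 single-antigen steps (horizontal axis), coloured by complex; filled points passed an adjusted p of 0.05, solid lines give the members' median and dashed lines that of all genes. Filled points occur in the Thy step among CD105- cells, 17 in number, and in no other step.

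The 6C3 steps ask what differs with 6C3 among Thy- cells, and neither called a member with limma. Among CD105+ cells the median change was 0.03 (all genes 0.00) and 1.36% of all genes were called; 2 members were higher and 1 lower at an unadjusted p under 0.05 (4.34% and 3.27% of all genes). Among CD105- cells the median was 0.06 (all genes 0.07) and 2.74% were called; 5 were higher and 1 lower (7.9% and 6.04%). The side of the family turned with the scaling here too: the median was 0.06 as deposited (all genes 0.15) and -0.11 with array medians equalized (all genes -0.02), with 61, 57 and 28 of 94 changes above 0 in the 3 scalings. Among CD105+ cells it was 0.08 as deposited and 0.09 with medians equalized. Cox5b, a nuclear-encoded subunit of complex IV, was among the higher in both at that level, by 0.30 ± 0.14 (SE, limma adjusted p = 0.65) and 0.40 ± 0.14 (adjusted p = 0.185). Ndufa1 had the smallest adjusted p, 0.159, at 0.48 ± 0.16 among CD105- cells, where its arrays did not overlap. The 6C3 interaction called 0 members and 0 genes, and 0 members were under an unadjusted p of 0.05 (0.956% of all genes higher and 2.03% lower).

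The CD105 steps called no member either. Among Thy-6C3- cells the median change was 0.09 (all genes 0.03), 0.0055% of all genes were called, and 1 member was higher (Cox7a1) and 1 lower (Cox7b2) at an unadjusted p under 0.05 (1.03% and 0.72% of all genes). Among Thy-6C3+ cells the median was 0.01 (all genes -0.02), 0% of all genes were called, and at an unadjusted p under 0.05 there was 1 member higher, Sdhd, and 0 lower (1.51% and 1.23% of all genes). With array medians equalized the median was 0.18 (all genes 0.08) and 84 of 94 changes were above 0, against 55 both quantile normalized and as deposited, where the median was 0.02. For the step among Thy-6C3- cells the other 2 scalings gave 0.01 and -0.02. The Sdhd value rests on 1 array: replicate 2 of Thy-6C3+CD105- read 8.20, against 10.73 and 10.44 in the other 2.

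In Thy+6C3- cells, CD105+ against CD105-, 1.02% of all genes and 0 members were called, with 1 member higher and 7 lower at an unadjusted p under 0.05 (9.05% and 13.3% of all genes). Ndufs5 read 9, 8.57 and 8.33 in CD105+ and 9.16, 9.20 and 9.38 in CD105- cells, without overlap, a change of -0.61 ± 0.20 (SE; limma adjusted p = 0.134). Atp5mpl changed by -0.47 ± 0.17 (adjusted p = 0.141) and Cox6a2, the muscle isoform of COX6A, by -0.93 ± 0.34 (adjusted p = 0.15). With array weights 3 members were called lower, Ndufs5, Cox8a and Cox6a2. This step uses the Thy+6C3-CD105- arrays, and its family median turned with the scaling: -0.07 quantile normalized (all genes -0.08), 0.27 as deposited (all genes 0.01) and 0.42 with medians equalized (all genes 0.15).

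Several complex IV subunits exist as a general isoform and one restricted to certain tissues. Cox4i2, the isoform known from lung and oxygen-sensing cells, had population means of 5.82 to 6.19; Cox6b2, known from testis, 5.96 to 6.45; Cox7b2 3.29 to 3.50; and Cox8b, known from heart and muscle, 5.78 to 6.80. All but the highest Cox8b mean lay under the median gene mean of 6.76, a range of signals in which expression and background cannot be separated in these files. Cox6a2 had means of 6.88 to 7.80, the highest in Thy+6C3-CD105-, where its arrays read 7.66, 7.33 and 8.42. The general partners had these gaps between the highest and lowest population mean: 0.41 for Cox4i1, 0.24 for Cox6a1 and 0.47 for Cox6b1. For Cox7a2 the gap was 0.33 and for Cox8a 0.72. In the restricted isoforms it was 0.38 for Cox4i2, 0.93 for Cox6a2, 0.49 for Cox6b2, 0.78 for Cox7a1 and 1.02 for Cox8b. It was 0.22 for Cox7b2 and 1.06 for Cox8c. Signals of different probe sets do not rank the mRNAs of different genes.

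Ndufa4l2 is a paralog of Ndufa4 that hypoxia-inducible factor induces and that is also abundant in pericytes. It read 10.48, 11.34 and 10.69 in Thy+6C3-CD105+, 10.36, 10.04 and 10.21 in Thy+6C3-CD105-, and 10.35, 8.47 and 10.24 in Thy-6C3-CD105-. In Thy-6C3-CD105+ it read 10.49, 9.21 and 10.09, in Thy-6C3+CD105+ 10.88, 10.92 and 9.75, and in Thy-6C3+CD105- 10.06, 9.64 and 10.40. Every population overlapped at least 1 other. The SD within populations ran from 0.16 to 1.05 (0.63 pooled), beside a gap of 1.15 between the highest and lowest means. Its Thy step among CD105+ cells was 0.91 ± 0.44 (SE; limma adjusted p = 0.328), the largest positive change of the 94 there, and 1.25 ± 0.38 with array weights (adjusted p = 0.0312). In that step 10 of 12 pericyte and smooth muscle markers rose and 1 (Cspg4) fell, where 6.66% of all genes were called in either direction. The list averaged 7.85 to 8.16 on the Thy-6C3-CD105+ arrays and 9.80 to 9.98 on the Thy+6C3-CD105+ arrays. The part of these markers in the Ndufa4l2 value was not tested. Ndufa4 itself had population means of 10.41 to 10.68.

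Core subunits differed in their spread (quantile normalized). The gap between the highest and lowest population mean was 0.13 for Atp5a1, 0.27 for Uqcrc2, 0.28 for Atp5c1 and 0.30 for Ndufs1, but 0.46 for Atp5b, 0.54 for Uqcrc1, 0.58 for Sdhb, 0.74 for Ndufv1 and 0.86 for Ndufv2. Ndufs1 was among the genes called lower with medians equalized in the Thy step among CD105- cells. Uqcrfs1, the Rieske iron-sulfur protein of complex III, lay between 10.15 and 10.49 on 17 arrays and at 9.62 on replicate 3 of Thy+6C3-CD105-. Cox5a, a core-associated subunit of complex IV, read 9.12 on the same array and 10.98 to 11.89 on the other 17, and its other probe sets were lowest there too.

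Single arrays stood apart for many members. The array farthest from a gene's median was Thy+6C3-CD105- replicate 3 for 34 of the 94 genes (36.2%, against 35.4% of all genes), Thy-6C3-CD105- replicate 3 for 17 (18.1% against 10.4%) and Thy+6C3-CD105- replicate 1 for 15 (16% against 5.48%). Ndufb5 (8.73) and Atp5pb (9.73) were lowest on Thy+6C3-CD105- replicate 3. Ndufa6 (7.77), Atp5l (7.34) and Atp5e (8.93) were lowest on Thy-6C3+CD105- replicate 2.

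Other genes of mitochondrial metabolism were counted from lists, first in the Thy step among CD105- cells (quantile normalized, limma). That step called 10.5% of all genes higher and 7.45% lower, the shares to set beside each list count here and below. Of 76 mitochondrial ribosomal protein genes, 14 rose and 2 fell, with a median of 0.36; as deposited the median was -0.02 and with medians equalized -0.16, a turn like that of the respiratory chain. In the Thy step among CD105+ cells their median was 0.14, 0.21 and 0.24 in the 3 scalings, with no call. Cytochrome c and complex IV assembly genes had 1 of 21 higher (Cox19) and 1 lower (Cox11), with a median of 0.09 that was -0.20 as deposited and -0.34 with medians equalized. Of 18 regulators of mitochondrial biogenesis and mitochondrial DNA, 0 rose and 3 fell: Yy1 (-1.57 ± 0.51), Tfam, the packaging factor of mitochondrial DNA (-1.32 ± 0.32), and Lrpprc (-0.64 ± 0.19). The list's median was -0.25, -0.57 and -0.72 in the 3 scalings.

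The tricarboxylic acid cycle list had 2 of 17 higher, Cs (citrate synthase, 0.90 ± 0.17) and Idh2 (0.84 ± 0.25), at a median of -0.02. The fatty acid oxidation list had 3 of 14 higher, Acaa2 (1.10 ± 0.22), Cpt1a (0.81 ± 0.25) and Etfb (0.52 ± 0.16), at a median of 0.43; Etfb turned to -0.03 and the median to -0.11 with array medians equalized. Of 12 carriers, channels and antioxidant genes, Gpx4 (0.80 ± 0.15) and Vdac1 (0.59 ± 0.17) rose.

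Of 12 glycolysis genes, 3 fell and 0 rose in the Thy step among CD105- cells: Aldoc (-2.41 ± 0.26), Pfkl (-1.39 ± 0.30) and Hk2, hexokinase (-1.17 ± 0.23), with a list median of -0.36. Among CD105+ cells 6.66% of all genes were called, both directions together. There Aldoc (-2.20 ± 0.26) and Hk2 (-1.32 ± 0.23) fell, with a list median of -0.33. The median was below 0 in all 3 scalings in both steps, from -0.21 to -0.82. Of 19 hypoxia-inducible factor genes and targets, 6 fell and 3 rose among CD105- cells. Epas1 (-2.95 ± 0.23), Hif1a (-1.62 ± 0.37) and the glucose transporter gene Slc2a1 (-1.60 ± 0.36) were the largest of those that fell, and Adm (1.70 ± 0.46) and Car9 (1.5 ± 0.25) of those that rose. Among CD105+ cells Slc2a1 (-1.36 ± 0.36) and Bnip3 (-1.10 ± 0.24) fell and Car9 (1.31 ± 0.25) rose.

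Marker counts are of called genes. The Thy step among CD105+ cells called 6.66% of all genes, both directions together. The step among CD105- cells called 10.5% higher and 7.45% lower. In both Thy steps all 12 chondrocyte markers were lower in the Thy+ cells, with list medians of -3.07 (CD105+) and -3.05 (CD105-). Of 5 osteoblast markers, 3 and 4 were lower. Of 8 tendon and fibroblast markers, 6 were higher in each. Of 9 immediate early genes, which respond to cell handling, 7 and 9 were lower. Proliferation markers had 1 and 5 of 9 higher. Of 8 endothelial markers, 4 were higher among CD105+ cells (Esam, Sox18, Tek and Flt1) and 2 among CD105- cells (Sox18 and Tek). Among CD105+ cells the fat marker Cebpa was also higher and the muscle marker Tnni2 lower. Among CD105- cells 3 of 8 keratinocyte and 2 of 8 myeloid markers were higher, and of 12 pericyte and smooth muscle markers 4 were higher and 2 lower. The part of these shifts in cell makeup in the respiratory chain values was not tested.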

How the data were processed

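RNA of sorted cells was amplified in 2 rounds, biotin-labelled and put on Affymetrix mouse expression arrays, per the labels' protocols. The deposited table holds log2 values for 45101 probe sets on 19 arrays; the authors' summarization and normalization of the scans are not given in sources used here. Because the deposited log2 medians differed by over 0.1, arrays were quantile normalized. Gene names came from the platform annotation: 34945 probe sets name 1 gene, 932 several and 9160 none, beside 64 controls. Arrays were grouped by the labels' population field.

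limma 3.58.1 (R 4.3.3) fitted 1 mean per population over 18 neonatal arrays (12 residual degrees of freedom), with eBayes and a trend, 7 single-antigen steps, 2 interactions and a moderated F-test. Tests were two-sided, with Benjamini-Hochberg adjustment over 18193 genes within each contrast; called means an adjusted p under 0.05. The fit was tested on simulated data with 200 changed genes. Named were called members by size, the 8 smallest F p-values, isoform genes with their general partners, and core subunits; others with single-array departures or a call under another scaling were named after their values were seen. Members and lists were chosen with earlier results of these data known. Some genes of the chain are not reported here. Same-numbered arrays deviated together in no regular way (correlations from -0.56 to 0.593), so numbers were not used to pair arrays. With 3 arrays per population these correlations cannot exclude a pairing. Alternatives were the scaling, probe set choice, a filter on low signals, array weights, blocks, grouping by title, compared populations only, and leaving out each array. Arrays give no depth, and 3 per population limit the precision.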

Additional observations from a re-analysis of the deposited data

Results flagged for a closer look

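The adult array lies outside the comparisons above. On it 13 of the 94 respiratory chain genes were above every neonatal array and 13 were below every one, or 13.8% each, against 11.7% and 14.2% of all genes. By distance from the neonatal mean, the genes farthest above were Ndufb3 (10.36, against 8.77 to 9.80 on the 18 neonatal arrays), Sdhaf3 (7.92 against 5.56 to 7.63) and Sdhaf4 (9.53 against 7.42 to 8.95). Farthest below were Ndufa4l2 (8.10 against 8.47 to 11.34), Atp5b (10.59 against 11.78 to 12.60) and Ndufa9 (9.62 against 10.19 to 11.17). Of the 13 above, 5 are assembly factor genes (Ndufaf2, Ndufaf8, Sdhaf2, Sdhaf3 and Sdhaf4). The labels of this array conflict, the source field naming sternum and ear and the tissue field limbs. Age and the sorted antigens, and tissue if the source field holds, cannot be told apart here, and a single array allows no test.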

How the results depend on the processing

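The count of 4 members in the F-test became 0 as deposited and 0 with array medians equalized only, 9 with array weights and 7 with the poly-A set as block; leaving out single arrays gave 1 to 6. It was 1 without Thy-6C3-CD105- replicate 2, Thy-6C3-CD105+ replicate 1, or Thy+6C3-CD105+ replicate 2 or 3, and 2 without Thy-6C3-CD105- replicate 3 or Thy-6C3-CD105+ replicate 2 or 3. The Thy step among CD105+ cells went from 0 calls to 1 without shared probe sets, 1 among the upper part of genes by mean, 8 with array weights, 2 with the poly-A block and 4 with the compared populations only; it stayed at 0 without any single array. The Thy step among CD105- cells went from 17, all higher, to 3 as deposited (Atp5b lower) and 4 with medians equalized (Atp5b, Ndufs1 and Sdha lower). It went to 9 without shared probe sets, 9 with array weights and 2 with the compared populations only, and ranged from 6 to 24 over fits without single arrays. With the poly-A set as block all 17 kept their call, further members passed, and Sdhaf3 was called lower (-0.92). The CD105 step in Thy+6C3- cells went from 0 to 3 with array weights. The cause of these moves was not tested, except that removing probe sets left 76 members to test.

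These changes turned sign. With medians equalized, in the Thy step among CD105- cells, Atp5j was -0.06, Cox4i1 0.00, Ndufa2 -0.05, Uqcrq -0.01 and Ndufa4l2 -0.03. In the Thy step among CD105+ cells, Uqcrq was -0.09 with the mean of probe sets, -0.39 without shared probe sets and -0.09 with array weights, Cox5b -0.30 without shared probe sets, and Ndufs5 -0.05 with array weights. Without single arrays, Ndufa4l2 ranged from -0.09 (without Thy-6C3-CD105- replicate 2) to 0.84 among CD105- cells. Among CD105+ cells Ndufs5 ranged from -0.11 to 0.22, Uqcrq from -0.10 to 0.07 and Cox7a1 from -0.53 to 0.04. Of the 17 called genes, Ndufa13 kept its call under 13 of 14 alternatives (limma adjusted p 0.00148 to 0.0766). For Atp5mpl and Ndufs5 it was 12 of 15, and for Ndufb9 and Uqcrq 5 of 15. Ndufa13 could not be tested without shared probe sets, because its only probe set is of that kind.

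With replicate number as a replicate block, the Thy step among CD105- cells called 19 members, 16 of the 17 among them. The block left the other counts as they were. Whether the numbers pair the arrays is not known.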
